A study of Mus musculus with 6 samples.

Results

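The miR-126 hairpin yields 2 mature strands, miR-126-3p and miR-126-5p, and both were measured in the aortas of mice with and without an endothelial cell (EC)-directed deletion of Dicer1. The members were the mouse assays named exactly miR-126-3p or miR-126-5p, which are 2 of the 596 mouse miRNA assays in the table, and both had a signal in all 6 samples. All mice were on an Apoe-/- background and carried the tamoxifen-inducible VE-Cadherin-CreERT2 transgene, in which the promoter of the EC cadherin Cdh5 drives the Cre recombinase. The groups were 3 EC-Dicerflox mice (VE-Cadherin-CreERT2Dicer1flox/flox/Apoe-/-) and 3 EC-DicerWT littermates (VE-Cadherin-CreERT2Dicer1WT/WT/Apoe-/-), which differ only in the Dicer1 allele. Both groups received tamoxifen (2 mg for each 20 g of weight, given on 5 days), ate a high-fat diet for 4 weeks, and per the methods were 6 to 8 weeks old when it began. The labels give the sex as male and the methods as female. RNA came from the whole aorta, which holds many cells other than the ECs at which the transgene is aimed, and Dicer1 itself was not measured on the cards.

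MiR-126 is a miRNA strongly enriched in the endothelium. Its hairpin lies within Egfl7, a gene for a protein that ECs secrete, and Drosha and then Dicer cut it into a duplex whose strands can both be loaded onto Argonaute proteins. MiR-126-3p is known to sustain vascular endothelial growth factor signalling and vessel integrity by repressing Spred1 and Pik3r2, and to repress the adhesion molecule Vcam1. MiR-126-5p is known to support EC proliferation by repressing the Notch1 inhibitor Dlk1.

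The mature sequence of miR-126-3p and the hairpin are shown because the comparison rests on 2 strands of 1 precursor. They are the RefSeq sequences of Mir126a in the mouse assembly GRCm38.p6, in which the hairpin of 73 bases lies on the plus strand at chr2:26591357-26591429 and miR-126-3p at chr2:26591402-26591423. Capitals mark the seed (bases 2 to 8) in the first sequence and the whole of miR-126-3p in the second.
miR-126-3p: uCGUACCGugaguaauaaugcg
Mir126a hairpin: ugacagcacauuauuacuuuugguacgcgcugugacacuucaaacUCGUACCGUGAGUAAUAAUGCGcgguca

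MiR-126-3p spans 22 bases from position 46 of the hairpin, on its 3′ arm. Among 1738 mature entries of the RefSeq table, mmu-miR-126a-3p was the single one with this seed; assays without an entry in the table were not checked. Mir126a overlapped the protein-coding gene Egfl7 and the antisense hairpin Mir126b. The annotated strand miR-126b-5p, at chr2:26591399-26591420 on the minus strand, holds 19 bases that are complementary to miR-126-3p, and the cards carried 0 assays of miR-126b. Its seed is in capitals to show that it differs from that of miR-126-3p.
miR-126b-5p: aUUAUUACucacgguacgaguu

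Each value is a cycle threshold (CT), the PCR cycle at which the fluorescence crosses a threshold. A higher CT means less RNA, 1 cycle earlier is 2-fold more if every PCR cycle doubles the product, and 40 stands for no signal. A signal was present in every sample for 350 miRNAs, whose median CT ranged from 26.4 to 28.2, and the latest was that of EC-Dicerflox replicate 3, in which 375 miRNAs had a CT under 40 against 402 to 415 in the other samples. The smooth muscle miRNAs miR-143 and miR-145 were both abundant in this tissue, whose wall is built mainly of smooth muscle cells, and miR-145 had the lowest mean CT of all assays. Of 6 striated muscle miRNAs, miR-208b and miR-499 were at 40 in every sample and miR-208 was under 40 in 3 of 6. The liver miRNA miR-122 was under 40 in all samples, with CT values from 20.5 in EC-Dicerflox replicate 2 to 28.0 in EC-Dicerflox replicate 3.

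MiR-126-3p was among the most abundant miRNAs of the aorta. Its CT was 18.0, 17.1 and 19.1 in EC-Dicerflox replicates 1, 2 and 3, and 18.0, 18.1 and 18.9 in EC-DicerWT replicates 1, 2 and 3. The third replicate was latest in both groups, and the unnormalised values of the groups overlapped. Over the 6 samples the mean CT was 18.2 ± 0.718 (SD, n = 6), which ranked 11 of 596, and within single samples the rank lay between 10 and 13. Its CT was 8.56 to 9.29 cycles below that of the median miRNA of the same sample.

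MiR-126-5p was the less abundant strand, but still well above most miRNAs. Its CT was 21.3, 20.3 and 23.0 in EC-Dicerflox replicates 1, 2 and 3, and 21.7, 22.3 and 22.7 in EC-DicerWT replicates 1, 2 and 3. Here too the earliest value was that of EC-Dicerflox replicate 2. The mean CT was 21.9 ± 0.979 (SD, n = 6), which ranked 55 of 596, with ranks from 38 to 64 in single samples. It was 4.52 to 6.08 cycles below the median miRNA. Of all 596 assays, 1.68% had a lower mean CT than miR-126-3p and 9.06% a lower mean CT than miR-126-5p. A CT also depends on how well each assay is reverse-transcribed and amplified, so that ranks order assays and not molecules.

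Neither strand was separated from its neighbours in this order. Next to miR-126-3p stood miR-30b and miR-720 at ranks 9 and 10 and miR-193b and miR-26a at ranks 12 and 13. The CT of miR-30b was 0.173 cycles below that of miR-126-3p, with an SD of the difference of 0.209 cycles, and that of miR-26a was 0.259 cycles above it, with an SD of 0.452. Next to miR-126-5p stood the erythroid miRNAs miR-486 (rank 53) and miR-451 (rank 56), with miR-125a-5p (rank 54) and miR-31 (rank 57). Their mean differences to miR-126-5p ranged from -0.213 to 0.21 cycles, all smaller than the SD of the difference, which was 0.462 or more.

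**Figure D1:**
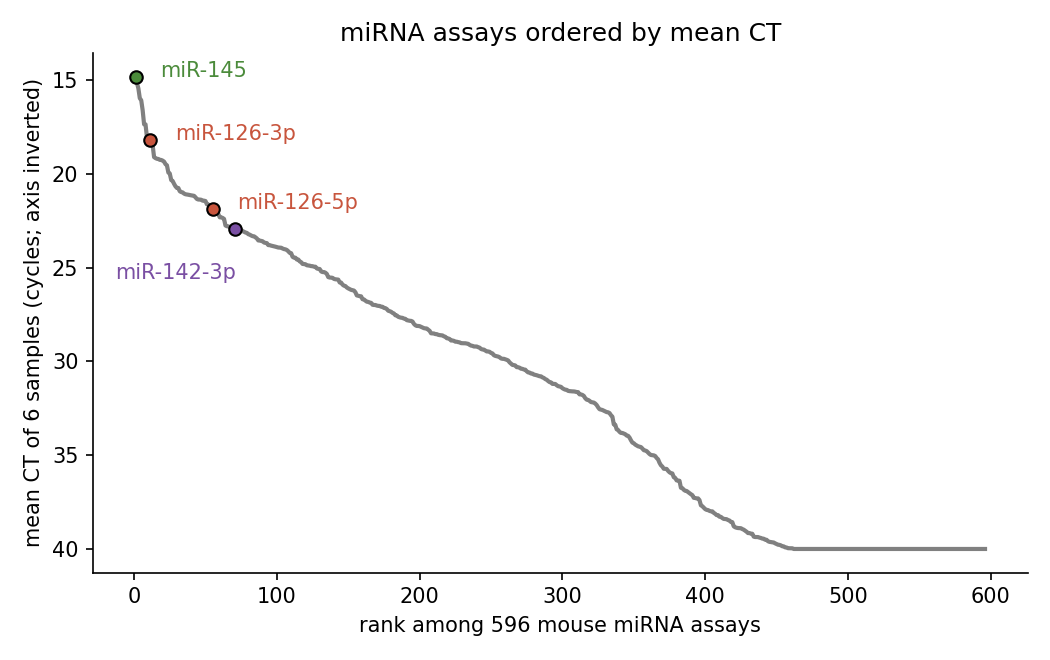
Mean CT over 6 samples (y axis in cycles, inverted so that abundant miRNAs are at the top) against the rank of each of the 596 mouse miRNA assays (x axis, grey line). MiR-126-3p at rank 11 and miR-126-5p at rank 55 are marked with the smooth muscle miRNA miR-145 at rank 1 and the leukocyte miRNA miR-142-3p at rank 71.

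MiR-126-3p exceeded miR-126-5p in every sample, by about an order of magnitude if both assays amplify equally well. The CT of miR-126-5p minus that of miR-126-3p was 3.35, 3.21 and 3.81 cycles in EC-Dicerflox replicates 1, 2 and 3. It was 3.61, 4.21 and 3.86 cycles in EC-DicerWT replicates 1, 2 and 3. As a ratio, miR-126-3p over miR-126-5p was 11.2 ± 2.50 (SD, n = 3) in EC-Dicerflox and 15.1 ± 3.15 (SD, n = 3) in EC-DicerWT mice, from 9.28 in EC-Dicerflox replicate 2 to 18.4 in EC-DicerWT replicate 2, and miR-126-5p made up 5.14% to 9.73% of both strands together. This difference needs no control RNA, and both assays are on the same card.

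The strand difference was smaller in EC-Dicerflox than in EC-DicerWT mice, but the groups overlapped. It was 3.46 ± 0.311 cycles (SD, n = 3) in EC-Dicerflox and 3.89 ± 0.298 cycles (SD, n = 3) in EC-DicerWT mice, a difference of -0.435 cycles (exact permutation test, two-sided p = 0.2, with 0.1 the smallest p that 3 samples against 3 allow). EC-Dicerflox replicate 3 lay above EC-DicerWT replicate 1. In pairs of the same replicate number the difference was -0.261, -0.991 and -0.054 cycles, so that replicate 2 gave most of it. In a limma fit over 46 hairpins the 95% interval of the difference ran from -1.21 to 0.34 cycles (adjusted p = 0.846).

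**Figure D2:**
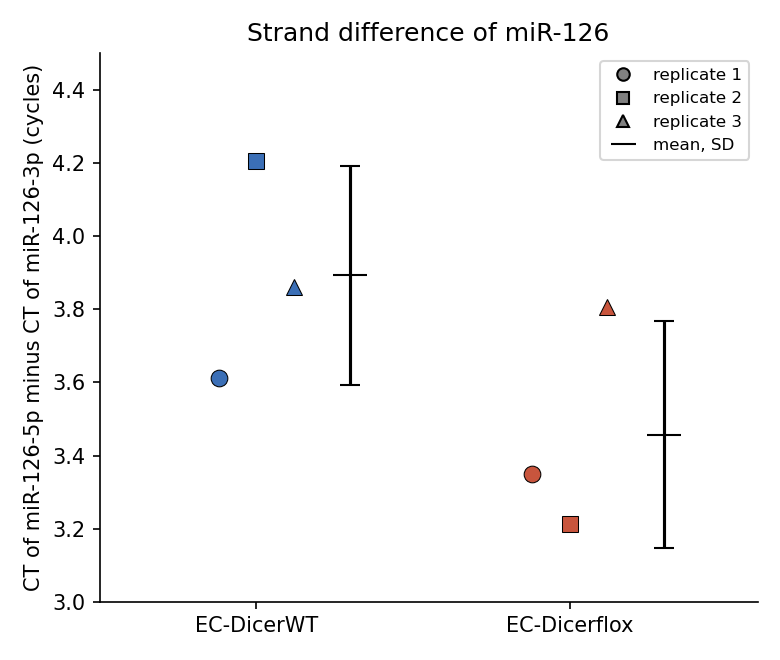
CT of miR-126-5p minus CT of miR-126-3p (y axis in cycles, from 3 to 4.5) in 3 EC-DicerWT and 3 EC-Dicerflox aortas. Symbols stand for replicate numbers and bars for mean and SD. The values lie between 3.21 and 4.21 cycles, and EC-Dicerflox replicate 3 at 3.81 reaches into the range of EC-DicerWT mice.

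Compared with other hairpins, the strand difference of miR-126 was near the middle in size and varied less between samples than that of most. Strands were paired by exact name, -5p with -3p or a name with its starred form, and names carried by several assays were left out. This gave 103 hairpins with an assay for each strand. In 46 of these both strands were under a CT of 40 in every sample. The size of the mean strand difference had a median of 4.16 cycles. With 3.67 cycles, miR-126 was at place 19 of 46, between let-7a (3.47 cycles) and miR-872 (3.91 cycles). The strand difference of miR-126 had an SD of 0.362 cycles over the 6 samples, against a median SD of 0.617 over the hairpins, and 9 hairpins had a smaller SD. Hairpins were not matched by CT. The largest SDs, of miR-342 (3.22 cycles) and miR-145 (2.26), came with a strand at a mean CT of 32.2 and 36.8. The smallest, of miR-125a (0.0737), came with a strand at 28.1. The part of abundance in the SD was not tested. Among the 18 hairpins with both strands on 1 card, miR-126 was at place 8 by size and at place 5 by SD, beside a median SD of 0.457. The SD was also smaller than that of the CT of either strand (0.718 and 0.979 cycles), which both strands shared in part. In 3 of the 46 hairpins, or 6.52%, EC-Dicerflox and EC-DicerWT values did not overlap, and miR-126 was not one of them.

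**Figure D3:**
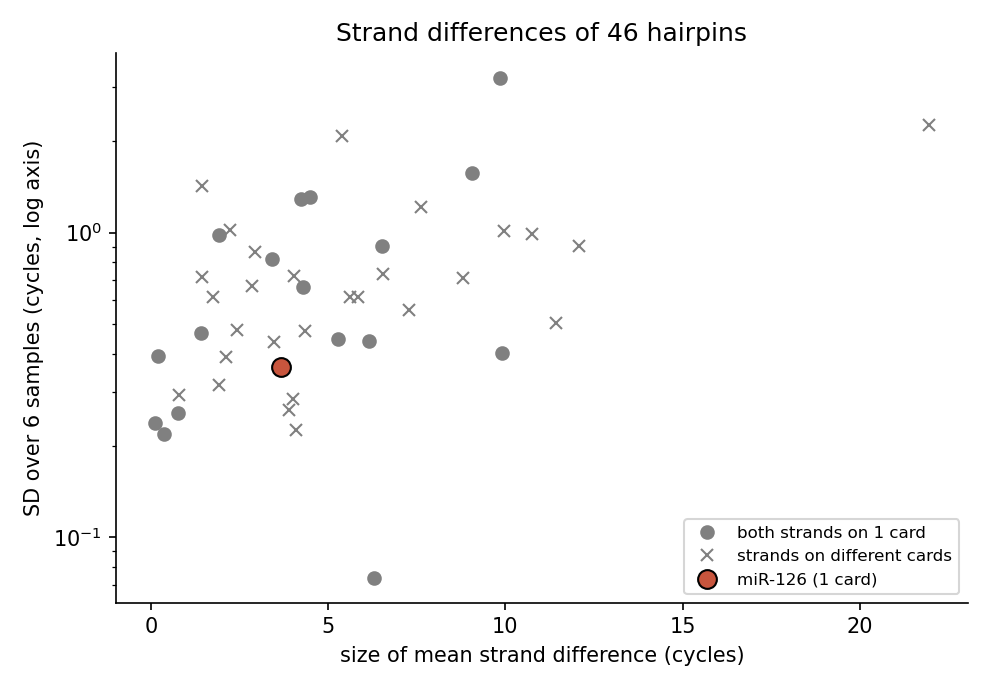
SD of the strand difference over 6 samples (y axis in cycles, logarithmic) against the size of the mean strand difference (x axis in cycles) for 46 hairpins. Circles are hairpins with both strands on 1 card and crosses those with strands on different cards; miR-126, in red, sits at 3.67 cycles with an SD of 0.362 cycles, below the median SD of 0.617.

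Between the genotypes, neither strand passed the test, and both estimates were higher, not lower, in EC-Dicerflox mice. Levels were set relative to the averaged CT of the small RNAs U6 and snoRNA135 within a sample (delta CT), and a level is minus the delta CT, so that a higher value means more RNA. The level of miR-126-3p was 0.92, 1.58 and 1.08 in EC-Dicerflox replicates 1, 2 and 3, and 0.77, 0.83 and 0.74 in EC-DicerWT replicates 1, 2 and 3. The EC-DicerWT mice lay close together, and all 3 EC-Dicerflox mice were above them, EC-Dicerflox replicate 1 by a small step. For miR-126-3p, EC-Dicerflox over EC-DicerWT gave a log2 fold change of 0.41 (standard error 0.28, 95% interval from -0.28 to 1.11), with an unadjusted limma p of 0.193 and an adjusted p of 0.923 over 461 miRNAs.

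The level of miR-126-5p was -2.43, -1.64 and -2.73 in EC-Dicerflox replicates 1, 2 and 3, and -2.84, -3.38 and -3.12 in EC-DicerWT replicates 1, 2 and 3. Again the 3 EC-Dicerflox samples were above the 3 EC-DicerWT samples, with EC-Dicerflox replicate 3 only just above EC-DicerWT replicate 1. For miR-126-5p the log2 fold change came to 0.85 (standard error 0.38, 95% interval from -0.11 to 1.80), with an unadjusted limma p of 0.0727 and an adjusted p of 0.923. In fold terms, the estimates were 1.33-fold for miR-126-3p and 1.80-fold for miR-126-5p, and the lower ends of the intervals were losses of 17.9% and 7.40%. With Y1 alone as the control RNA these lower ends were log2 values of -1.24 and -0.71.

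Across all assays, 0 of 461 miRNAs (0%) had an adjusted limma p under 0.05 and 14 (3.04%) had an unadjusted p under 0.05, neither strand among them. Leaving out EC-Dicerflox replicate 1 gave 2 miRNAs with an adjusted p under 0.05, and leaving out EC-Dicerflox replicate 3 gave 1, again neither strand. The groups did not overlap for 48 miRNAs (10.4%), and for 28 (6.07%) all EC-Dicerflox samples were the higher ones, miR-126-3p and miR-126-5p included. Of the 350 miRNAs under 40 in all samples, 19.7% had a higher log2 fold change than miR-126-3p and 6% a higher one than miR-126-5p. The median of these miRNAs was itself at 0.10, and between -0.19 and 0.19 with single control RNAs. Relative to the median, the log2 fold change was 0.31 for miR-126-3p and 0.74 for miR-126-5p.

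**Figure D4:**
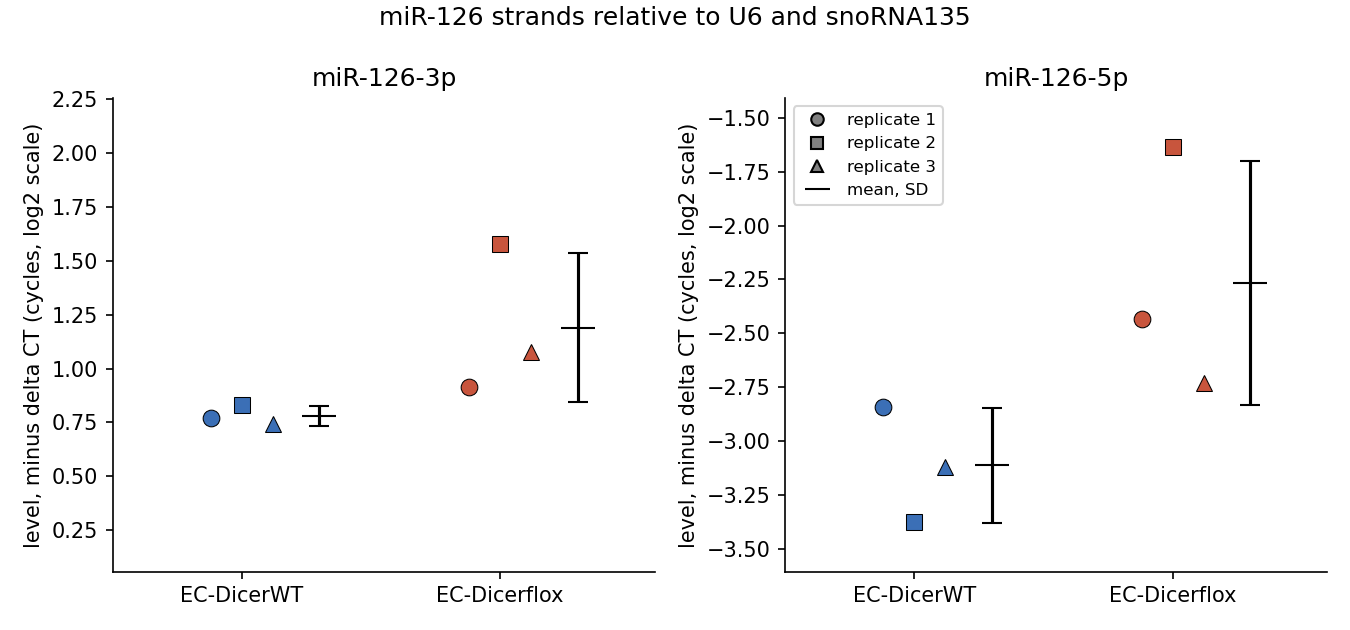
Level of miR-126-3p (left) and miR-126-5p (right) as minus delta CT against U6 and snoRNA135 (y axes in cycles, a log2 scale of equal span in both panels) in 3 EC-DicerWT and 3 EC-Dicerflox aortas. Symbols stand for replicate numbers and bars for mean and SD; EC-Dicerflox replicate 2 is the highest sample in both panels, at 1.58 and -1.64.

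How far the groups were apart depended on the control RNA and on 1 sample. Over 9 references, the groups did not overlap for miR-126-3p with 3 of them, namely U6 with snoRNA135 and the mean or the median of all miRNAs. For miR-126-5p they did not overlap with 5 references, these 3 and snoRNA135 or snoRNA202 alone. The values of the controls themselves overlapped between the groups. U6 was at 15.9 ± 0.432 (SD, n = 3) in EC-Dicerflox and 15.7 ± 0.185 (SD, n = 3) in EC-DicerWT mice (two-sided p = 0.5 by the exact permutation test), and snoRNA135 at 22.6 ± 1.23 (SD, n = 3) and 22.6 ± 0.672 (SD, n = 3) (two-sided p = 0.9 by the exact permutation test). These tests cannot give a p below 0.1. The means of U6 differed by 0.235 cycles, beside a log2 fold change of 0.41 for miR-126-3p. When EC-Dicerflox replicate 2 was left out, the sample with the highest level of both strands, the log2 fold change was 0.22 for miR-126-3p and 0.53 for miR-126-5p. This sample also had the lowest CT of the liver miRNA miR-122, at 20.5 against 23.1 to 28.0 in the others, and the part of other tissue in the result was not tested.

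**Figure D5:**
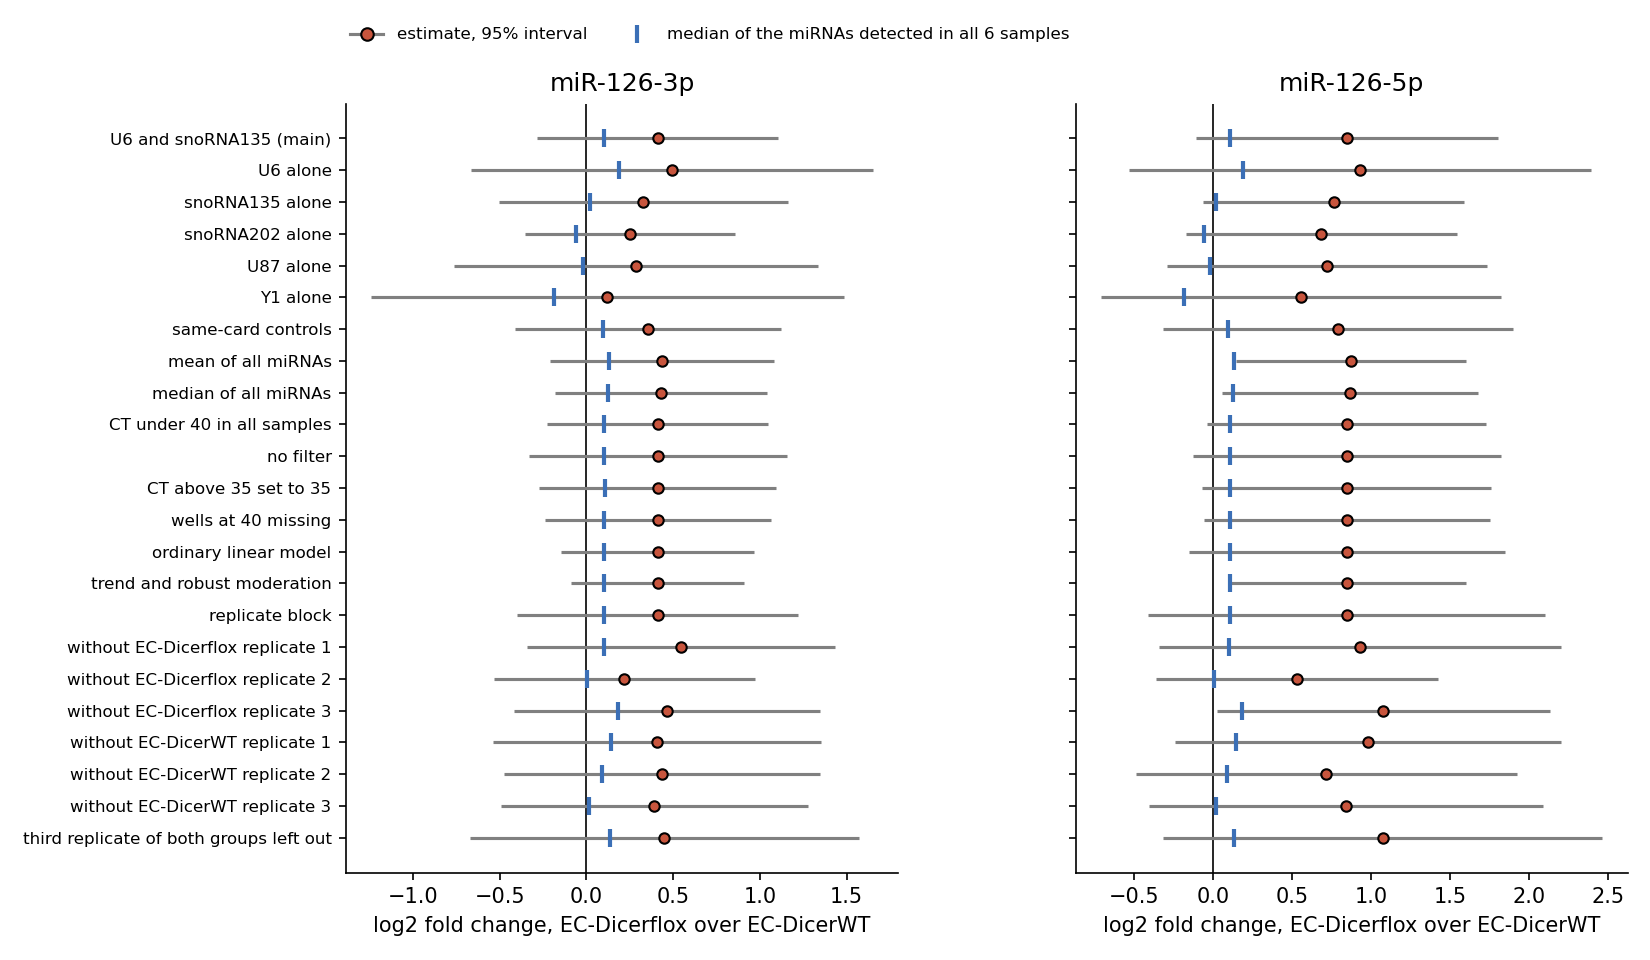
Log2 fold change of miR-126-3p (left) and miR-126-5p (right) in EC-Dicerflox over EC-DicerWT mice (x axes) under 23 settings (rows). Circles are estimates, grey lines 95% intervals and blue ticks the median of the miRNAs detected in all 6 samples; every circle lies above 0, from 0.12 to 0.55 for miR-126-3p and from 0.53 to 1.08 for miR-126-5p.

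Each strand was also set against 12 marker miRNAs of other cell types that had a signal in all samples, in comparisons added after seeing the data. With 3 samples against 3, no exact permutation p in them, adjusted or not, could fall below 0.1. The difference in CT did not overlap between the groups for 3 of 12 with miR-126-3p and for 5 of 12 with miR-126-5p. Among all 349 other miRNAs with a signal in every sample, this was so for 15.8% with miR-126-3p and for 33% with miR-126-5p, and in nearly all of them EC-Dicerflox samples were the higher ones (14.9% and 32.7%). The markers that separated the groups were miR-142-3p, miR-142-5p (leukocytes) and miR-133a (striated muscle) for miR-126-3p, and the same with miR-150 (leukocytes) and miR-486 (erythroid cells) for miR-126-5p. Other markers of striated muscle and erythroid cells, namely miR-1, miR-133b and miR-451, overlapped between the groups for both strands. Relative to miR-126-3p, miR-1 differed by -0.023 cycles, the other way. In bulk RNA of the aorta, fewer cells of a type and less RNA per cell cannot be told apart. The CT of miR-142-3p, a miRNA of leukocytes, minus that of miR-126-3p was 4.98, 5.23 and 5.08 cycles in EC-Dicerflox replicates 1, 2 and 3 and 3.75, 4.85 and 4.31 cycles in EC-DicerWT replicates 1, 2 and 3. All EC-Dicerflox samples were above all EC-DicerWT samples, by 0.792 cycles in the mean (exact permutation test, two-sided p = 0.1, or 0.3 after Benjamini-Hochberg adjustment over 24 such comparisons). Without EC-DicerWT replicate 1 the difference was 0.514 cycles. Against miR-126-5p the difference was 1.64 ± 0.369 cycles (SD, n = 3) in EC-Dicerflox and 0.412 ± 0.258 cycles (SD, n = 3) in EC-DicerWT mice, with the same p-values by the exact permutation test.

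The other leukocyte miRNAs had mean differences in the same direction relative to both strands, but those of miR-150 and miR-223 rested on single samples. This direction was not particular to leukocytes. Markers of other cell types shared it, except miR-122 relative to miR-126-3p (-0.559 cycles) and miR-126-5p (-0.123 cycles), and miR-1 relative to miR-126-3p. Among miRNAs with a signal in every sample, 19.7% had a higher log2 fold change than miR-126-3p and 6% a higher one than miR-126-5p. All others lay in the same direction as the leukocyte miRNAs. MiR-142-5p, from the same hairpin as miR-142-3p, separated the groups by 1.41 cycles relative to miR-126-3p and by 1.84 cycles relative to miR-126-5p (exact permutation tests, two-sided p = 0.1 for each, or 0.3 after Benjamini-Hochberg adjustment). The CT of miR-150, which marks lymphocytes, minus that of miR-126-5p was -0.52, -0.73 and -0.91 cycles in EC-Dicerflox replicates 1, 2 and 3 and -1.71, -3.33 and -0.94 cycles in EC-DicerWT replicates 1, 2 and 3 (exact permutation test, two-sided p = 0.1, or 0.3 after Benjamini-Hochberg adjustment). The groups all but touched, and the difference of their means, 1.27 cycles, was 0.606 cycles without EC-DicerWT replicate 2. Relative to miR-126-3p they overlapped at a difference of 0.839 cycles (two-sided p = 0.4 by the exact permutation test), or 0.327 without EC-DicerWT replicate 2 and 1.35 without EC-DicerWT replicate 3. MiR-223, which marks myeloid cells, had a CT that spanned only 0.61 cycles over the 6 samples, against 2.02 for miR-126-3p. Its comparison therefore has a limit like that given below for miR-145. It overlapped between the groups in relation to either strand, with differences of 0.244 cycles for miR-126-3p and 0.68 cycles for miR-126-5p (exact permutation tests, two-sided p = 0.6 and p = 0.4). The former turned to -0.075 without EC-Dicerflox replicate 2 and to -0.083 without EC-DicerWT replicate 3, and the latter ran from 0.239 to 1.24 cycles when 1 sample was left out. In the fit over all miRNAs, 3 of the 4 leukocyte miRNAs had lower and 1 had higher estimates in EC-Dicerflox mice, beside 210 lower and 251 higher of all 461. Their median log2 fold change was -0.40, beside 0.08 for all 461 miRNAs. Of the 4, miR-142-5p was the member with an unadjusted limma p under 0.05, beside 14 (3.04%) of all 461. Its log2 fold change was -0.996, with an adjusted limma p of 0.923. The summed level of the list, mostly that of miR-150 and miR-223, was -0.89 to -0.23 in EC-Dicerflox and -0.54 to 0.32 in EC-DicerWT mice on the log2 scale.

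In relation to the smooth muscle miRNA miR-143, the groups overlapped for both strands. MiR-143, which with miR-145 maintains the contractile state of smooth muscle cells, had a lower CT than miR-126-3p in every sample. Its CT minus that of miR-126-3p was -0.86, -0.27 and -1.03 cycles in EC-Dicerflox replicates 1, 2 and 3 and -1.07, -0.92 and -0.98 cycles in EC-DicerWT replicates 1, 2 and 3 (exact permutation test, two-sided p = 0.3). With miR-126-5p in its place the difference between the groups was 0.706 cycles (exact permutation test, two-sided p = 0.2), or 0.358 without EC-Dicerflox replicate 2. The other smooth muscle miRNA, miR-145, though counted among the 12 markers, was not read in this way, since its CT spanned only 0.265 cycles over the 6 samples, while that of miR-143 spanned 1.26 and that of miR-126-3p 2.02 cycles. A summed level of the smooth muscle list, which would be mostly miR-145, is not given for the same reason. The log2 fold change of miR-143 alone was 0.14 (standard error 0.23), with an adjusted limma p of 0.923. The summed levels of the erythroid list were -2.21 to -1.23 and -2.42 to -0.70 in EC-Dicerflox and EC-DicerWT mice, the striated muscle sums 0.04 to 0.46 and 0.02 to 0.16, and the liver sums -7.82 to -1.81 and -7.63 to -4.17, respectively. Of these, the striated muscle sum was mostly miR-133a and the liver value is that of miR-122 alone.

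By the spread of the difference in CT, several miRNAs followed each strand more closely than its partner did. Likeness was measured as the SD over the 6 samples of the difference in CT to the strand, among 349 other miRNAs under 40 in all samples. Closest to miR-126-3p were let-7c (SD 0.154 cycles, with differences from 1.55 to 1.91), miR-2182 (0.162) and miR-339-5p (0.17), against a median SD of 0.536. MiR-126-5p was at place 96 in this order, with an SD of 0.362. By the correlation of delta CT over the 6 samples, however, miR-126-5p was at place 4 of 349 (r = 0.884), ahead of let-7c (r = 0.873), so that the order depended on the measure. Closest to miR-126-5p were miR-335-5p (SD 0.132 cycles, with differences from 6.92 to 7.31), the assay of miR-10b on the second card (0.254) and miR-322 (0.311), against a median SD of 0.707, and miR-126-3p was at place 8 by either measure. These orders rest on 6 points that share RNA input and, except for miR-2182 and the named miR-10b assay, the card. The SD of a difference is small for any pair of assays that track the input.

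A list of miRNAs that have been studied in ECs, without being particular to them, held no member past the test. Of 23 in the list, 22 were on the cards and tested, and 0 had an adjusted or an unadjusted limma p under 0.05, beside 0% and 3.04% of all miRNAs. Their estimates were higher in EC-Dicerflox mice for 17 and lower for 5, with a median log2 fold change of 0.17. Among the 350 miRNAs under 40 in all samples, 197 were higher and 153 lower, with a median of 0.10. The direction within the list followed the control RNA. With U6 alone 19 of its members were higher and 3 lower, with snoRNA135 alone 14 and 8, and with U87 alone 13 and 9. With snoRNA202 alone 11 were higher and 11 lower, and with Y1 alone 6 were higher and 16 lower. The lowest estimates were those of miR-10a, which restrains NF-κB signalling in ECs, at -0.78 (standard error 1.02), and miR-296-5p at -0.54 (0.42). The highest were those of miR-23a at 0.70 (standard error 0.62) and miR-100 at 0.69 (1.35). The estimate of miR-126-5p, 0.85, was above all 22, and that of miR-126-3p, 0.41, was exceeded by 3 of them.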

How the data were processed

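MiRNAs were measured in 6 aortas with TaqMan array cards, after the RNA had been reverse-transcribed with the rodent Megaplex pools and pre-amplified. The authors deposited the CT of each assay in cycles, not normalised and listed at 40 without a signal; how threshold and baseline were set is not given in the sources used here. Columns were matched to samples by name, and 0 value columns were left unused. The style of the assay numbers was taken to tell 2 cards apart (335 and 261 mouse miRNA assays).

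Delta CT was the CT minus the mean of U6 and snoRNA135 (4 wells). The group comparison used limma 3.58.1 (lmFit, eBayes; R 4.3.3) on the 461 miRNAs that gave a signal in 1 or more samples, with Benjamini-Hochberg adjustment, and single values by exact permutation of 6 samples (20 arrangements, two-sided). The fit was tested on simulated data with changes larger than those estimated for either strand, so that this test does not tell how well changes of their size are found. Same-numbered samples shared deviations from their group means (correlations of 0.150, 0.224 and 0.431 over 350 miRNAs, each above 0.1), but neither labels nor methods say what a number shares, and replicates 1 and 2 also correlated across numbers (0.285). Replicates are biological samples per the labels, and their number limits the precision. The members and lists were chosen with earlier results of these data known; the named miRNAs are the strands, their neighbours in rank and strand difference, the 3 most alike, the markers and the extremes of the EC list. Alternatives were single control RNAs, same-card controls, the mean or median miRNA, other filters and spreads, a block for the replicate number and leaving out samples; leaving out replicate 3 of both groups and the comparisons with marker miRNAs were added after seeing the data. For miR-126-5p, no mature sequence is printed.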

Additional observations from a re-analysis of the deposited data

How the results depend on the processing

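The log2 fold changes of both strands stayed above 0, with adjusted p-values above 0.05, in all 22 alternatives. They ranged from 0.12 (Y1 alone) to 0.49 (U6 alone) for miR-126-3p and from 0.56 (Y1 alone) to 1.07 (replicate 3 of both groups left out) for miR-126-5p, and from 0.22 to 0.55 and from 0.53 to 1.08 when 1 sample was left out. An unadjusted p under 0.05 was reached by miR-126-5p in 4 of these and by miR-126-3p in 0. Blocking on replicate number, the p-values of miR-126-3p and miR-126-5p were 0.214 and 0.126 (unadjusted) and 0.767 (adjusted), and the pairing changed no call; for the strand difference the block gave -0.435 cycles (exact sign-flip test, p = 0.25, its smallest). The strand difference ranged from -0.626 to -0.435 cycles over 4 alternatives and from -0.61 to -0.28 when 1 sample was left out. The number of miRNAs with an adjusted p under 0.05 was 0 to 2 when 1 sample was left out. The number with an unadjusted p under 0.05 was 14, but 9 with U6 alone, 24 with the ordinary linear model and 12 to 22 when 1 sample was left out. Of these, 64.3% were lower in EC-Dicerflox mice, against 50% with the mean of all miRNAs, 77.8% with snoRNA202, 78.6% with U87 and 80% with Y1 alone, 50% with trend and robust moderation and 41.7% with the ordinary linear model. Without EC-Dicerflox replicate 3 it was 52.6%, and with replicate 3 of both groups left out 52.9%. MiR-126-3p ranked 13 by the median CT, 10 with same-card controls and 10 to 12 when 1 sample was left out; the rank of miR-126-5p moved by less than its spread between samples. The cause of these shifts was not tested.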
